A study of Mus musculus with 6 samples.

Results

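Transcripts of 10 BCL2 family genes were measured in mouse left ventricle with and without cardiomyocyte-specific overexpression of RBM20, an RNA-binding protein that controls splicing in heart muscle. The genes were taken by symbol: the anti-apoptotic Bcl2, Bcl2l1, Bcl2l2 and Mcl1, the pore-forming effectors Bak1 and Bok, and Bcl2l11, Bik, Bid and Bad, which carry only the BH3 domain. Family genes listed as p53 targets, such as Bax, were left out of the set. All 10 were found among 31273 gene symbols, and all 10 reached the mean of 1 TPM that 12404 genes reached. TPM is a length-corrected relative abundance with the same total in every library.

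BCL2 family proteins decide whether the outer mitochondrial membrane is opened, which releases cytochrome c and starts the caspase cascade. Effectors form the opening, anti-apoptotic proteins hold effectors and BH3-only proteins in check, and BH3-only proteins relay stress signals by occupying the anti-apoptotic proteins or by activating the effectors. In the adult heart, whose muscle cells are hardly replaced, MCL1 and BCL-XL, the long product of Bcl2l1, are known as guards of mitochondrial integrity.

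The study used a mouse line with tamoxifen-inducible knock-in of RBM20 in cardiomyocytes and, with 3 libraries per genotype label, compared it with a control genotype (titles cki38, cki41 and cki44 for the control label, cre36, cre40 and cre46 for overexpression, here replicates 1 to 3 of each in that order). The labels and design text give no strain, age, Cre promoter or tamoxifen scheme, nor whether control mice received tamoxifen. The design text writes cKI for knock-in mice, whereas titles with cki carry the control genotype label, and the genotype label was followed here. The labels do not say beyond the title numbers that libraries come from separate animals. The p-values therefore measure the spread between these libraries, which may in part be technical. Rbm20 followed the genotype labels, at 74.9, 90.9 and 79.5 TPM under control and 321, 913 and 907 TPM under overexpression (limma log2 difference 2.96, SE 0.36, adjusted p = 0.000182). Esr1 was at 0.234 to 0.415 TPM in control and 53.0 to 217.8 TPM in overexpression libraries. Tamoxifen-inducible Cre proteins carry part of an estrogen receptor, and an effect of Cre cannot be told apart from one of RBM20 here. Overexpression replicate 1 stood apart from the other 5 libraries, with the lowest Rbm20 level of its group and the Y-linked Ddx3y at 88.1 TPM against 0. Xist, which is expressed in females, was at 0.0172 TPM in it and at 34.4 to 62.6 TPM in the other 5. By these genes replicate 1 was male and the others female, so sex was not balanced between the groups.

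The deposited values shifted as a whole. The median log2(TPM + 1) difference, overexpression minus control, was 0.55 over all 12404 tested genes, while mitochondrially encoded transcripts fell from between 48.3% and 52.0% to between 36.7% and 41.0% of the TPM. Differences are therefore also given after division by a size factor per library, the median over genes of the ratio to each gene's geometric mean. These are called rescaled, and the median difference of all genes was then 0.01. In deposited TPM limma called 59.0% of all tested genes higher and 9.09% lower at an adjusted p below 0.05, and after rescaling 22.2% higher and 24.0% lower. These shares are the background for every count of genes that follows. Defining cardiomyocyte transcripts were abundant, and none of the 10 markers was at 0. Their summed level was 56358 to 64091 TPM in control and 49126 to 55094 TPM in overexpression libraries, with 5 of 10 lower and 2 of 10 higher in TPM, and 8 lower and 0 higher after rescaling (0 higher also at an unadjusted limma p below 0.05 and with voom).

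Sequences just before the transcription start show what the start sites of the members look like. RefSeq windows of GRCm38.p6 were found for 9 of the 10 genes (13 start sites), Bik being the gene without one. The 5 stretches below lie before the start site and outside every exon of GENCODE M21. They belong to Bok, Bid and Bad, which were called higher under both scalings, and to Mcl1 and Bcl2l1, called lower after rescaling. Capitals mark the GC box GGGCGG, the core letters bound by SP1-type factors, read on either strand (CCGCCC on the other).
Bok (chr1:93685325-93685574, plus strand): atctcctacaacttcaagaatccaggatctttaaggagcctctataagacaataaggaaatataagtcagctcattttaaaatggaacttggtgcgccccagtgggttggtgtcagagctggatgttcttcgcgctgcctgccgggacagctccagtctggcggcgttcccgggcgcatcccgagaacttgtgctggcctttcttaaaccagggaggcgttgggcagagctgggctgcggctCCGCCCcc
Bid (chr6:120916854-120917074, minus strand): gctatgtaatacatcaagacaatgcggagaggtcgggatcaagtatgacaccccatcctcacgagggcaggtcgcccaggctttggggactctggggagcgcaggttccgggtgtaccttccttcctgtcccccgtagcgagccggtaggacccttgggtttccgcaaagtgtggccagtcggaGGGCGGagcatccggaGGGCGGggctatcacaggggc
Bad (chr19:6941611-6941860, plus strand): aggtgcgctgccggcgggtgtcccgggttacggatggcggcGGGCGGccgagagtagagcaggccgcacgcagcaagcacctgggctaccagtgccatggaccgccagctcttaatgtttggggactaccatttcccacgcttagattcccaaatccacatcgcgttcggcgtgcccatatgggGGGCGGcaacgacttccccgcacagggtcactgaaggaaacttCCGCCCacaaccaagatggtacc
Mcl1 (chr3:95658471-95658720, plus strand): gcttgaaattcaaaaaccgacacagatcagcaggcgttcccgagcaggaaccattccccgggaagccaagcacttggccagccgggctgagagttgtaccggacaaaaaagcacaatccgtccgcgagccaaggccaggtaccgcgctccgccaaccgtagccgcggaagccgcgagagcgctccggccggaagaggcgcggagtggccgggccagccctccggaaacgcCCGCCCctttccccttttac
Bcl2l1 (chr2:152831729-152831978, minus strand): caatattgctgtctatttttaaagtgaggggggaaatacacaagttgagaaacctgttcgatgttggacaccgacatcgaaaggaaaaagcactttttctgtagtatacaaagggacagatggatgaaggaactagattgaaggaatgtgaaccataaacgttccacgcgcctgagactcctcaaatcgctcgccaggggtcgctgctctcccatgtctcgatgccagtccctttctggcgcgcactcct
The GC box stood once in the Bok stretch, 2 times in the Bid stretch of 221 bases, 3 times in the Bad stretch, once in the Mcl1 stretch and 0 times in the Bcl2l1 stretch. Because the stretches were chosen by the calls of their genes, these counts are not set against the calls. Among stretches not printed, that of Bcl2 held the box 7 times, those of Bcl2l11 3 and 2 times and that of Bcl2l2 1 time. None of these genes was called after rescaling. Further start sites of Bcl2l1 and Bad are not shown. Of all 32851 windows of 250 bases before a start site 32.7% held it. The TATA box (TATAAA, in 12.4% of all windows), the CCAAT box (CCAAT, 33.8%), the STAT site (TTCNNNGAA, 7.02%), the E2F site (TTTNNCGC, 4.28%), the CRE (TGACGTCA, 1.55%) and the E-box (CACGTG, 6.02%), each searched on both strands, had no match in these 5 stretches. Over the 13 windows of the members the GC content ran from 47.6% to 74.8%, with a median of 63.6%, against 52.4% over all windows. These matches describe letters and show no binding.

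The main comparison asked how each member differed between overexpression and control ventricles. In deposited TPM 8 of the 10 members were called higher and 0 lower, against 59.0% and 9.09% of all tested genes. After rescaling 5 were higher, all of them effectors or BH3-only genes, and 2 were lower, both of them anti-apoptotic, against 22.2% and 24.0% of all genes. The median log2 difference of the 6 effector and BH3-only genes was 1.39 in TPM and 0.91 after rescaling, whereas the 4 anti-apoptotic genes had medians of 0.35 and -0.26. Over all genes these medians were 0.55 and 0.01. Bid is in these counts and medians, though its control mean was 0.733 TPM and it passed the filter only through the overexpression group. With a filter at 5 TPM, which removed Bid and Bcl2, 6 members were called higher and 0 lower in TPM. The count of 0 lower members in TPM was also 0 at an unadjusted limma p below 0.05 and with voom on the recovered reads. The groups did not overlap in 8 members in TPM, all with overexpression higher, against 62.1% of all genes. After rescaling they did not overlap in 5 members that were higher and 3 that were lower, against 28.3% and 28.7%. Quantile normalization gave 5 members called higher and 1 lower (23.9% and 22.7% of all genes), and TPM without mitochondrially encoded genes 5 and 0 (40.1% and 13.4% of 13420 genes). The groups include 1 library that stood apart, and without overexpression replicate 1 the counts were 8 higher and 0 lower in TPM, and 4 higher and 3 lower after rescaling.

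**Figure D1:**
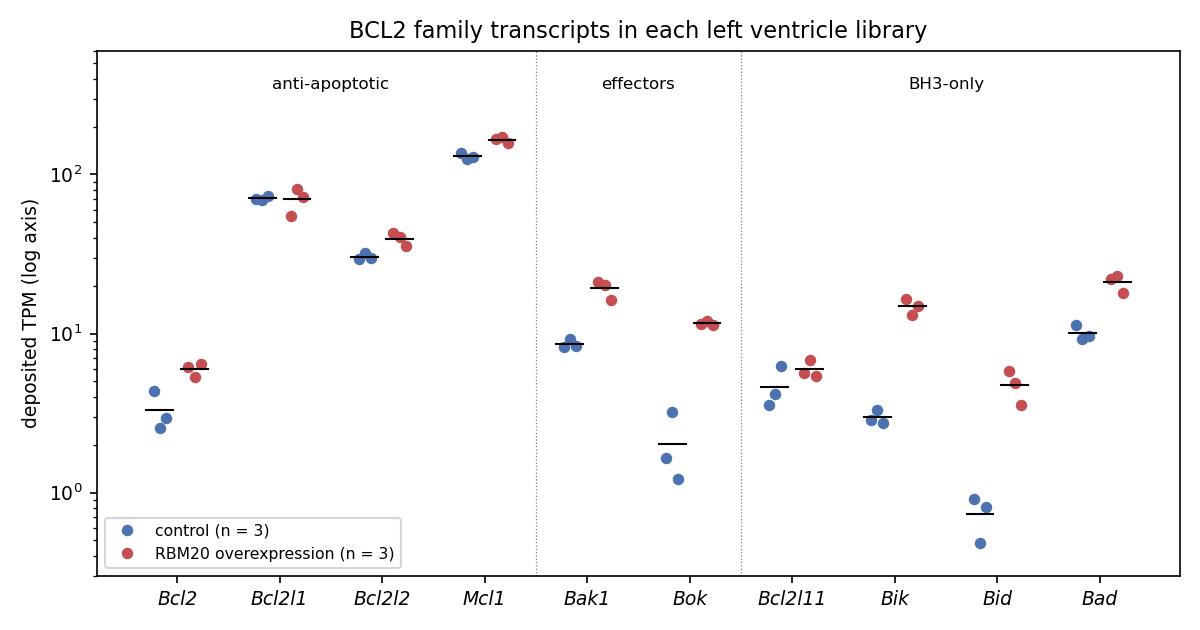
Deposited TPM (log axis) of each member in the 3 control (blue) and 3 RBM20 overexpression (red) libraries, points being libraries and lines group means. Bok, Bik and Bid show the widest gaps between groups, and Bcl2l1 and Bcl2l11 overlap.

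The effectors rose under both scalings. BOK, an effector that can act without BH3-only activation and is found largely at the endoplasmic reticulum, is encoded by Bok (chromosome 1, 93685660 to 93695764, plus strand of GRCm38, GENCODE M21). Bok stood at 1.66, 3.22 and 1.22 TPM in control replicates 1 to 3 and at 11.4, 12.04 and 11.3 TPM in overexpression replicates 1 to 3. Every overexpression library lay above every control library, and control replicate 2 was the highest of the controls. Behind these values were 49, 134 and 31 reads in control and 326, 312 and 544 reads in overexpression libraries, recovered from the TPM steps and known up to a whole factor per gene. The mean rose 5.70-fold (limma log2 difference 2.11, SE 0.23, adjusted p = 0.00012, and 1.61, adjusted p = 0.000796, after rescaling). This difference was above that of 98.1% of tested genes.

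BAK, the effector that sits in the outer mitochondrial membrane of healthy cells, is encoded by Bak1 (chromosome 17, 27019810 to 27029009, minus strand). Bak1 was at 8.22, 9.18 and 8.32 TPM in control and at 21.1, 20.2 and 16.3 TPM in overexpression libraries, so the groups did not overlap and replicate 3 was the lowest of the overexpression group. The rise was 2.24-fold (limma log2 difference 1.07, SE 0.13, adjusted p = 0.000227, and 0.49, adjusted p = 0.00692, after rescaling). Bak1 lies wholly within Ggnbp1 on the opposite strand, and the sources do not say if counting was stranded, so reads of the pair cannot be told apart with certainty. Ggnbp1 went the other way, from between 10.2 and 11.3 TPM in control to between 3.53 and 4.42 TPM in overexpression libraries.

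Of the 4 BH3-only genes 3 rose under both scalings. BIK, a BH3-only protein anchored at the endoplasmic reticulum that binds anti-apoptotic partners, is encoded by Bik (chromosome 15, 83526862 to 83544634, plus strand). Bik was at 2.86, 3.30 and 2.72 TPM in control and at 16.4, 13.1 and 15.0 TPM in overexpression libraries. The libraries of each group lay close together and far from the other group. The rise was 5.005-fold (limma log2 difference 2.00, SE 0.14, adjusted p = 2.07e-05, and 1.46, adjusted p = 0.000142, after rescaling), from 63 to 125 reads in control and 308 to 658 reads in overexpression libraries.

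BID links death receptors to mitochondria once caspase-8 has cut it. Its gene Bid (chromosome 6, 120891930 to 120916853, minus strand) was at 0.905, 0.482 and 0.813 TPM in control and at 5.81, 4.88 and 3.55 TPM in overexpression libraries. All controls were below 1 TPM, so Bid passed the filter on low values only through the group in which it was high. Few reads stood behind the control values, 44, 33 and 34, against 273, 208 and 282 in overexpression libraries. The ratio of means was 6.47-fold (limma log2 difference 1.72, SE 0.20, adjusted p = 0.00016, and 1.32, adjusted p = 0.000993, after rescaling). Its log2 difference depends on the pseudocount and was 2.55 with 0.1 TPM in place of 1 TPM. Bid shares 913 bases with Bcl2l13 on the opposite strand, a gene at 23.0 to 26.2 TPM in control and 25.9 to 28.2 TPM in overexpression libraries.

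BAD is a BH3-only protein that growth factor signalling keeps inactive through phosphorylation and binding by 14-3-3 proteins. Bad (chromosome 19, 6941861 to 6951899, plus strand) was at 11.2, 9.25 and 9.60 TPM in control and at 22.1, 23.1 and 17.9 TPM in overexpression libraries. The groups did not overlap, and the rise was 2.10-fold (limma log2 difference 1.00, SE 0.14, adjusted p = 0.000385). The rescaled difference was smaller, at 0.41 (adjusted p = 0.0263). That rescaled call ended, with log2 differences of 0.32 to 0.40 and limma adjusted p-values of 0.068 to 0.0916, when overexpression replicate 1 or 2 or control replicate 2 or 3 was left out. Bad shares 620 bases with Gpr137 on the opposite strand, which was at 13.04 to 14.9 TPM in control and 18.0 to 23.8 TPM in overexpression libraries.

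Bcl2l11 encodes BIM, a potent activator held by all anti-apoptotic members and produced as several splice forms (chromosome 2, 128126038 to 128162547, plus strand). It was at 3.53, 4.15 and 6.21 TPM in control and at 5.64, 6.85 and 5.42 TPM in overexpression libraries. The groups overlapped, control replicate 3 being above 2 of the 3 overexpression libraries. Limma gave a log2 difference of 0.33 (SE 0.20, adjusted p = 0.166) in TPM and -0.19 (SE 0.20, adjusted p = 0.454) after rescaling, so its sign depended on the scaling. Without control replicate 3 the TPM difference was 0.52 and passed (adjusted p = 0.0431).

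**Figure D2:**
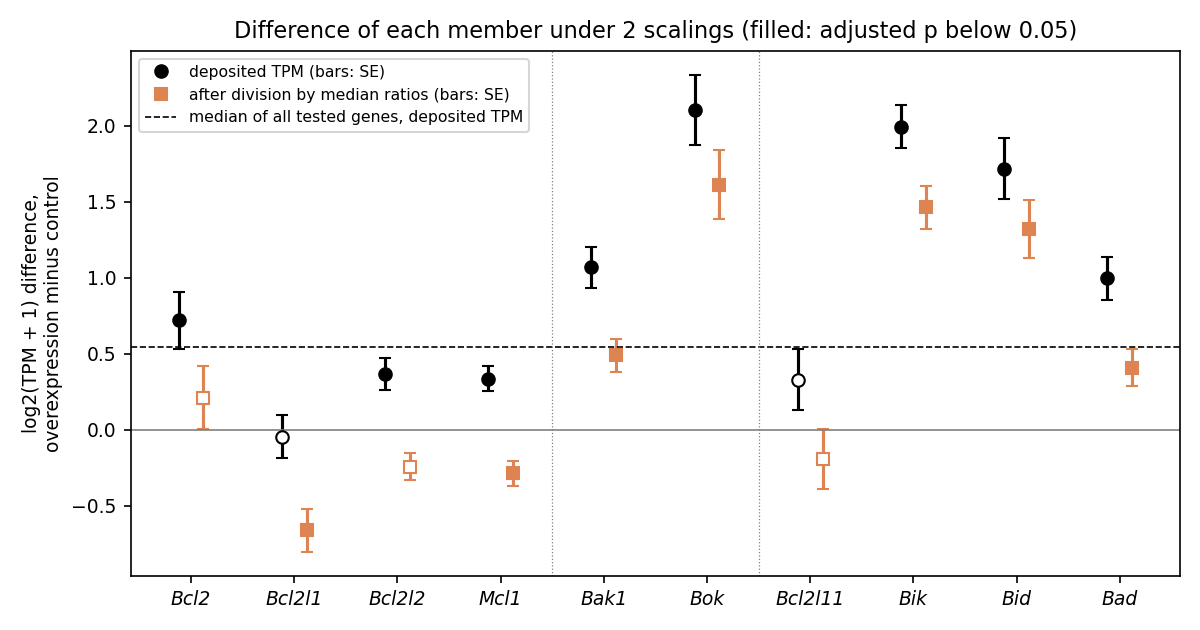
Difference in log2(TPM + 1), overexpression minus control, for each member in deposited TPM (black) and after division by median ratios (orange), with limma standard errors, 3 libraries per group and filled symbols for an adjusted p below 0.05. Bak1, Bok, Bik, Bid and Bad are filled and above 0 under both scalings, and Bcl2l1, Bcl2l2, Mcl1 and Bcl2l11 lie in TPM below the dashed median of all genes, 0.55.

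Mcl1, Bcl2l1 and Bcl2l2 were the most abundant members, and of the 4 anti-apoptotic genes 3 were higher in TPM and 0 after rescaling (also 0 at an unadjusted limma p below 0.05 and with voom). MCL1 is a short-lived protein that binds BAK and BIM, and Mcl1 (chromosome 3, 95658788 to 95663176, plus strand) was at 135.8, 125.8 and 129.0 TPM in control and at 166.0, 171.2 and 157.0 TPM in overexpression libraries. The groups did not overlap, and the 1.27-fold rise passed the test in TPM (limma log2 difference 0.34, SE 0.08, adjusted p = 0.00618). After rescaling the sign turned, to -0.29 (SE 0.08, adjusted p = 0.0244), again without overlap. That rescaled call ended (limma adjusted p = 0.0693 to 0.0891) without control replicate 1, control replicate 3 or overexpression replicate 2. In the scaling without mitochondrially encoded genes the difference was 0.05 (adjusted p = 0.538).

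BCL-XL is encoded by Bcl2l1 (chromosome 2, 152780668 to 152831728, minus strand), whose splicing also yields a short form with the opposite activity. Bcl2l1 was at 70.1, 69.2 and 73.4 TPM in control and at 54.9, 81.3 and 72.7 TPM in overexpression libraries, and the groups overlapped. Overexpression replicate 1 was the lowest of all 6 libraries and replicate 2 the highest. Limma gave a log2 difference of -0.04 (SE 0.14, adjusted p = 0.791), above that of 17.3% of tested genes, and without overexpression replicate 1 it was 0.12 (adjusted p = 0.322). After rescaling Bcl2l1 stood at 88.2, 81.6 and 93.7 in control and 44.0, 60.7 and 62.6 in overexpression libraries, which no longer overlapped. The rescaled log2 difference was -0.66 (SE 0.14, adjusted p = 0.00611), and it was -0.50 (adjusted p = 0.00536) without overexpression replicate 1.

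Bcl2l2 encodes BCL-W, a close relative of BCL-XL (chromosome 14, 54883377 to 54888234, plus strand). It was at 29.3, 31.9 and 29.9 TPM in control and at 42.6, 40.3 and 35.6 TPM in overexpression libraries, without overlap. The 1.30-fold rise passed the test in TPM (limma log2 difference 0.37, SE 0.11, adjusted p = 0.0139), whereas the rescaled difference was -0.24 (SE 0.09, adjusted p = 0.0522), again without overlap. Without overexpression replicate 1 that rescaled fall passed (log2 difference -0.29, limma adjusted p = 0.0298). GENCODE M21 places a read-through gene, Gm20521, over Bcl2l2 on the same strand, and Gm20521 is not among the gene symbols of the deposited values.

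Bcl2, the founding member of the family, was the least abundant anti-apoptotic gene (chromosome 1, 106538178 to 106714274, minus strand). It was at 4.38, 2.54 and 2.94 TPM in control and at 6.11, 5.33 and 6.45 TPM in overexpression libraries, and control replicate 1 came closest to the other group. The ratio of means was 1.82-fold (limma log2 difference 0.72, SE 0.19, adjusted p = 0.00878). After rescaling the groups overlapped and the difference was 0.21 (SE 0.21, adjusted p = 0.431). Gene totals do not separate the splice forms of Bcl2l1, Mcl1 or Bcl2l11, and exon use was not analysed here.

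Ratios between members within a library do not depend on how that library is scaled. The 4 anti-apoptotic genes together held 89.4%, 88.6% and 89.1% of the summed TPM of the 10 genes in control and 76.6%, 78.8% and 79.6% in overexpression libraries. The ratio of summed anti-apoptotic to summed effector and BH3-only TPM was 8.43, 7.75 and 8.14 in control and 3.27, 3.72 and 3.91 in overexpression libraries. Every overexpression library was thus below every control library, with replicate 1 the lowest. Both sums rose in TPM. The anti-apoptotic sum went from between 229.4 and 239.6 to between 269.7 and 298.2. The other sum went from between 28.4 and 29.6 to between 69.5 and 82.4. The rise of the anti-apoptotic sum holds for TPM only, since the median log2 difference of these genes after rescaling was -0.26, against 0.91 for the others. Since the members were chosen with earlier results known, these sums are a description and carry no p.

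Bcl2l1 had the largest fall in share among the 10 genes. Its share was 26.9% ± 0.818 in control and 19.5% ± 3.36 in overexpression libraries (SD, n = 3 each), a difference of -7.43 percentage points that ran from -8.45 to -5.49 with any 1 library left out. The share of Mcl1 was 49.4% ± 1.14 and 46.1% ± 0.958, and it was the most abundant member in all 6 libraries. Bik went from 1.13% ± 0.132 to 4.17% ± 0.635, Bok from 0.775% ± 0.414 to 3.24% ± 0.0607 and Bad from 3.80% ± 0.342 to 5.88% ± 0.555 (SD, n = 3 each). As examples of pairs that bind each other, Mcl1 over Bak1 was 16.5, 13.7 and 15.5 in control and 7.88, 8.49 and 9.61 in overexpression libraries. Bcl2l1 over Bad was 6.24, 7.48 and 7.64 against 2.48, 3.52 and 4.06. These examples do not stand for all binding pairs. Bcl2l11, whose product MCL1 also binds, had a share of 1.76% ± 0.535 in control and 1.67% ± 0.125 in overexpression libraries.

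**Figure D3:**
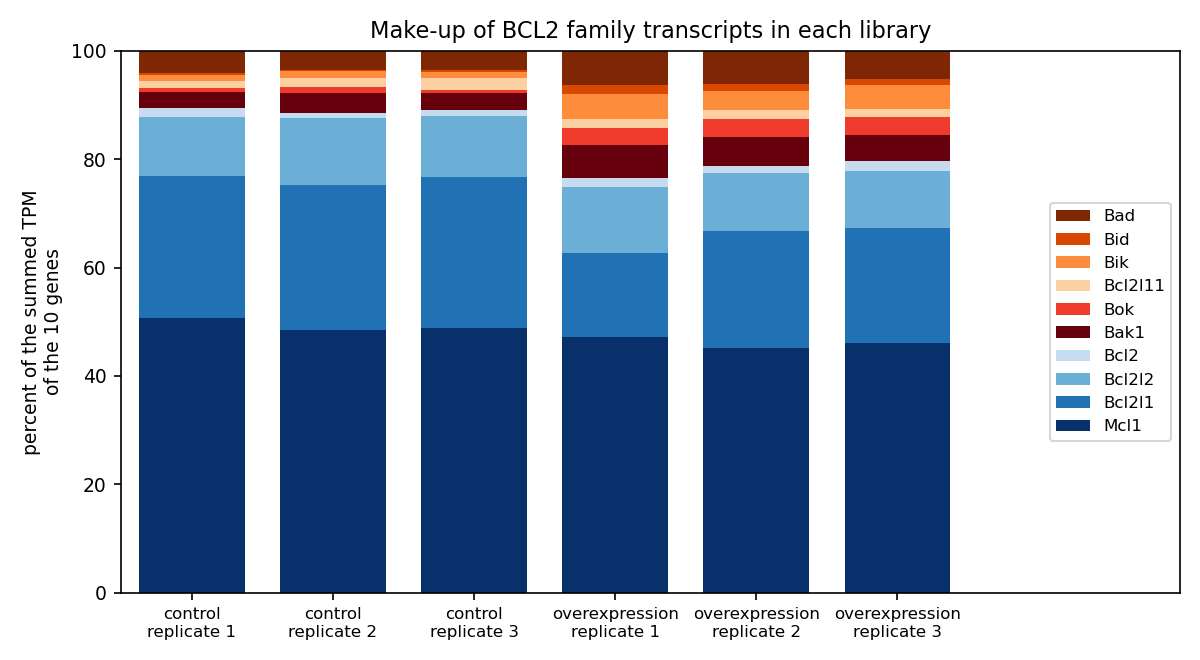
Percent of the summed TPM of the 10 genes taken by each gene in each library (stacked bars, blue anti-apoptotic, red effectors, orange to brown BH3-only). The blue part takes 88.6% to 89.4% of the control bars and 76.6% to 79.6% of the overexpression bars.

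The order of levels, which TPM allows because it is length-corrected, changed in its lower part. In control the order of means ran Mcl1, Bcl2l1, Bcl2l2, Bad, Bak1, Bcl2l11, Bcl2, Bik, Bok and Bid, and the range of Bcl2 overlapped those of Bcl2l11, Bik and Bok, as did the ranges of Bik and Bok with each other. In overexpression libraries Mcl1, Bcl2l1, Bcl2l2, Bad and Bak1 again led, followed by Bik, Bok, Bcl2l11, Bcl2 and Bid. Bak1 overlapped there with Bad and, narrowly, with Bik, and Bcl2l11, Bcl2 and Bid overlapped with one another, so these neighbours have no firm order. Across the 10 genes a lower control level went with a larger log2 difference (Spearman rho -0.76, against -0.20 over 12394 tested genes). Both axes share the control libraries, so this is a description of these genes.

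Markers of other cell types did not all move the same way. All 9 macrophage markers were called higher in TPM, with a summed level of 346 to 453 TPM in control and 740 to 1302 TPM in overexpression libraries, and 8 were higher after rescaling. All 7 markers of dividing cells were higher under both scalings (summed 4.11 to 4.37 TPM against 35.2 to 70.0 TPM), of which 1 reached a mean of 1 TPM in control. Of 9 fibroblast markers 7 were higher in TPM, and after rescaling 5 were higher and 2 lower (Dcn and Dpt). Their summed level was 506.9 to 656.9 TPM in control and 1437 to 2134 TPM in overexpression libraries. Endothelial markers were called in 0 of 8 in TPM by limma (369.9 to 466.1 TPM against 443.6 to 515.2 TPM), with 3 lower after rescaling, and erythroid markers in 0 of 5. At an unadjusted limma p below 0.05 these counts were 1 and 0, and with voom 0 and 0. Of 5 tested markers of pericytes and smooth muscle 2 rose in TPM, while after rescaling 1 was higher and 2 were lower. Of 6 tested mesothelial and epithelial markers 3 were higher under both scalings (summed 4.58 to 21.2 TPM against 26.2 to 46.8 TPM). These were Krt8, Krt18 and Krt19, all with control means below 1 TPM, which passed the filter only through the overexpression group. The defining lymphocyte markers Cd3e, Cd3d, Cd8a and Ms4a1 were at 0 in at least 1 library, and 3 of the 12 lymphocyte and neutrophil markers were abundant enough to test, all higher in TPM and 0 called after rescaling (2 at an unadjusted limma p below 0.05, 0 with voom). In bulk tissue fewer cells of a type and less RNA per cell cannot be told apart, and the part of these cells in the differences of Bok, Bik, Bid, Bak1 and Bad was not tested.

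Family genes outside the set gave a mixed picture. Of 15 such genes 9 were tested, 5 were higher in TPM (Bax, Bbc3, Bcl2a1b, Bcl2a1d and Bnip3) and 0 lower, and after rescaling 3 were higher and 3 lower (median log2 difference 0.41 in TPM and -0.13 after rescaling). Bax, the other main effector, rose from 16.5 ± 2.72 to 40.6 ± 6.99 TPM (SD, n = 3 each, limma log2 difference 1.24, adjusted p = 0.000236). Its ratio to Bak1 ran from 1.61 to 2.40 among control libraries and from 1.92 to 2.30 among overexpression libraries, so these ranges overlapped. Bcl2a1b and Bcl2a1d, anti-apoptotic genes of blood cells and near-identical copies whose reads may be split, rose from 0.64 ± 0.0579 to 4.58 ± 2.27 TPM and from 0.339 ± 0.277 to 1.88 ± 0.899 TPM. Both had control means below 1 TPM and moved beside the macrophage markers. The split by function seen among the members did not extend to all of these genes. After rescaling the anti-apoptotic Bcl2a1b and Bcl2a1d were called higher (log2 differences 1.31 and 0.80). The BH3-only genes Bbc3 (0.26, limma adjusted p = 0.397) and Bmf (-0.13, limma adjusted p = 0.562), named after their values were seen, were then not called.

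Downstream of the mitochondria, calls among genes of the caspase cascade were near the shares over all genes. Of 14 tested genes of the apoptosome, the caspases and the released factors, 7 were higher and 1 lower in TPM. After rescaling 4 were higher and 4 lower. Over all tested genes these shares were 59.0% and 9.09% in TPM, and 22.2% and 24.0% after rescaling. The list medians were 0.50 and -0.04, against 0.55 and 0.01 over all genes. Casp8, the caspase of death receptors that cuts BID, rose from 5.04 ± 0.0482 to 12.5 ± 2.74 TPM (SD, n = 3 each). Dffa, the inhibitor and chaperone of the nuclease that cuts DNA in dying cells, rose 1.96-fold, and both passed the test after rescaling too. Endog, a mitochondrial nuclease named after its values were seen, was the gene lower in TPM, falling from 17.7 ± 3.17 to 10.9 ± 0.922 TPM.

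Most inhibitors of caspases were higher in TPM, fewer after rescaling. Of 8 tested genes 7 were higher and 0 lower in TPM, and 3 were higher and 2 lower after rescaling (median 0.73 and 0.14). Nol3, which encodes the muscle-enriched apoptosis repressor ARC, rose from 11.8 ± 0.337 to 32.1 ± 3.77 TPM (SD, n = 3 each, limma log2 difference 1.36, adjusted p = 4.96e-05, and 0.77 after rescaling). Birc5, which encodes survivin and is needed for cell division, rose from 0.225 ± 0.245 to 2.36 ± 1.27 TPM, and is also among the markers of dividing cells. Birc5 and Naip2, which make up 2 of the 3 rescaled rises, had control means below 1 TPM and passed the filter only through the overexpression group. Cflar, a decoy of caspase-8, rose 1.65-fold in TPM but not after rescaling (log2 difference 0.08, limma adjusted p = 0.585).

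Upstream, 4 of 7 tested death receptor genes were higher in TPM (Tnfrsf1a, Fadd, Ripk1 and Bag4), and of these Tnfrsf1a alone was called after rescaling, while 0 were lower under either (median 0.88 and 0.34). Tnfrsf1a, the main receptor of tumour necrosis factor, rose from 27.2 ± 4.04 to 98.8 ± 18.2 TPM (SD, n = 3 each). The adaptor Fadd rose 2.04-fold and the kinase Ripk1 2.09-fold in TPM. Among kinases, 14-3-3 proteins and ubiquitin enzymes that act on family proteins, 12 of 17 were higher and 0 lower in TPM, and 4 were higher and 3 lower after rescaling (median 0.75 and 0.13). The 14-3-3 genes Ywhah, Ywhae and Ywhaq, whose products can hold phosphorylated BAD, rose 2.42-fold, 1.68-fold and 2.00-fold, and Ywhae was not called after rescaling (log2 difference 0.12, limma adjusted p = 0.252).

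Of 10 transcription factors reported to act on family genes, 7 were higher and 1 lower in TPM, and 3 were higher and 2 lower after rescaling (median 0.68 and 0.09). Stat3, known as an activator of Mcl1 and Bcl2l1, rose from 50.3 ± 1.88 to 130.7 ± 5.07 TPM, and Atf4, the main factor of the integrated stress response, from 72.3 ± 8.30 to 164.2 ± 34.0 TPM (SD, n = 3 each). E2f1, a factor of the cell cycle, rose from 0.354 ± 0.215 to 3.59 ± 1.18 TPM beside the markers of dividing cells. E2f1, 1 of the 3 factors higher after rescaling, passed the filter only through the overexpression group. Foxo3, known as an activator of Bcl2l11 and named after its values were seen, fell from 34.1 ± 5.38 to 23.3 ± 2.71 TPM.

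Partners at mitochondria and the endoplasmic reticulum changed in both directions in TPM. Of 14 tested genes 5 were higher (Becn1, Itpr1, Tmbim6, Bcap31 and Slc25a5) and 4 lower (Slc25a4, Ppif, Vdac1 and Opa1) in TPM, and after rescaling 0 were higher and 8 lower (median 0.19 and -0.39). At an unadjusted limma p below 0.05 the rescaled counts were 1 and 9, and with voom 0 and 9. For the family, caspase inhibitor, death receptor and kinase lists the counts of 0 lower in TPM were also 0 by both of these measures. Slc25a4, the heart form of the adenine nucleotide carrier, fell from 4039 ± 304 to 1995 ± 141.2 TPM, and Ppif, which encodes cyclophilin D of the permeability transition pore, from 64.3 ± 1.75 to 31.5 ± 3.30 TPM (SD, n = 3 each). Tmbim6, which encodes BAX inhibitor-1 of the endoplasmic reticulum, rose 1.58-fold in TPM and had a rescaled log2 difference of 0.03 (limma adjusted p = 0.798). Over the 79 tested genes of these 7 lists the median log2 difference was 0.59 in TPM, near the 0.55 of all genes, and 0.86 over the 10 members. After rescaling the median was 0.003 over these lists and 0.31 over the members. The members were not set apart from every list, since the death receptor genes had medians of 0.88 and 0.34.

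**Figure D4:**
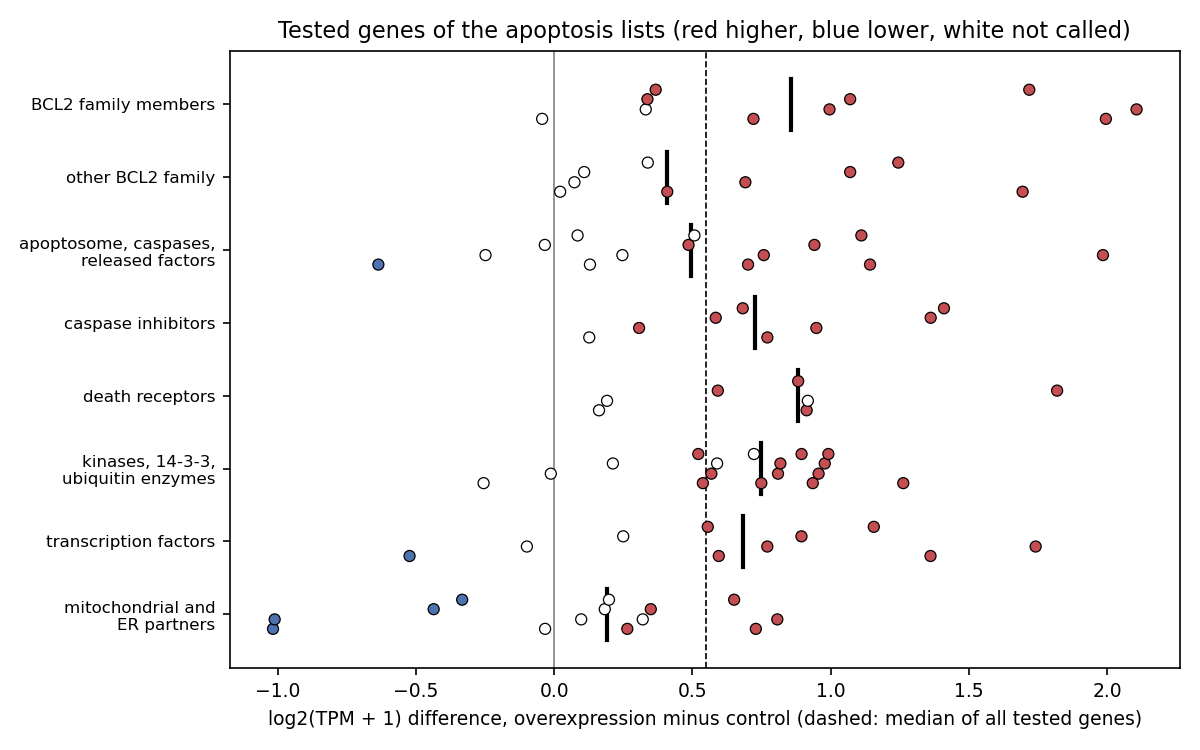
Difference in log2(TPM + 1), overexpression minus control, of each tested gene of the members and of 7 apoptosis lists (red called higher, blue called lower, white not called, thick line list median). The dashed line is the median of all 12404 tested genes, 0.55, and the medians of the 7 lists run from 0.19 for mitochondrial and ER partners to 0.88 for death receptor genes.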

How the data were processed

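The authors deposited TPM per gene symbol for 6 libraries of polyadenylated left ventricle RNA, sequenced as strand-specific read pairs per the labels' protocols. Per the submitters' processing notes, featureCounts 2.0.3 and edgeR 3.40.2 were among the tools and mm8 was the build named. Aligner, annotation and use of strand were not given in the sources used. Positions are those of GRCm38 (GENCODE M21) and promoter windows those of RefSeq GRCm38.p6, used in no test.

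Groups came from the genotype labels. The 12404 genes whose mean over the 6 libraries reached 1 TPM entered the test, run on log2(TPM + 1) with limma 3.58.1 in R 4.3.3 (trended, two-sided, Benjamini-Hochberg over all tested genes, threshold 0.05), a scale that understates changes of low genes. Folds are ratios of mean TPM. The labels give no batch. Reads per gene were recovered up to a common whole factor from the steps of TPM between libraries (tolerance 0.02 reads, 12398 of 12404 tested genes whole). Over the genes that came out whole they summed to 21805272 to 52342631 reads per library, and these genes held 55.3% to 68.6% of the TPM, so the sums are below the depth. The members and lists were chosen with earlier results of these data known. Named were all members, Rbm20, Esr1 and the 3 called genes with the smallest adjusted p in each of 7 lists, of which the values of 1 gene are not reported here. Genes named for overlap come from the annotation, and other genes named with a count were chosen after their values were seen. Alternatives were other pseudocounts, filters, scalings, limma settings, each library left out, and voom. The main limma fit was tested on simulated data, and the read recovery, rescaling and voom were not. Those simulated data had few changed genes, balanced up and down, so they do not show how the fit behaves when values shift as a whole. Figures used matplotlib 3.10.9.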

Additional observations from a re-analysis of the deposited data

How the results depend on the processing

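Scaling changed the calls of anti-apoptotic members, and the control values of Bid and Bok rest on few reads. The rises of Bok, Bik, Bid and Bak1 passed in all alternatives that tested them (23 each, 22 for Bid, which a filter at 5 TPM removed along with Bcl2). Members called higher numbered 8 in TPM and 5 after rescaling, under quantile normalization, without mitochondrially encoded genes and with voom on rescaled reads, an alternative chosen after seeing the data. Members called lower were 0, and 2, 1, 0 and 3 under those settings. Leaving out 1 library gave 8 to 9 higher and 0 lower in TPM, and 4 to 5 higher and 1 to 3 lower after rescaling.

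Signs turned after rescaling, under quantile normalization and with voom on rescaled reads for Bcl2l2 (-0.24, -0.15 and -0.25), Mcl1 (-0.29, -0.065 and -0.29) and Bcl2l11 (-0.19, -0.24 and -0.19). With 1 library left out after rescaling these ran from -0.29 to -0.20, -0.35 to -0.25 and -0.34 to 0.02, against 0.31 to 0.44, 0.31 to 0.37 and 0.19 to 0.52 in TPM. Bcl2l1 ran from -0.16 to 0.12 in TPM and from -0.75 to -0.50 after rescaling. Bcl2 lost its call in 10 of 22 alternatives.

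Over all genes 8443 were called, 7316 higher and 1127 lower. Higher were 2756 after rescaling, 2963 under quantile normalization and 2659 with voom on rescaled reads (5573 called in all). Lower were 2974, 2816 and 2914, and 1796 without mitochondrially encoded genes. With 1 library left out after rescaling 4434 to 5470 were called, 2050 to 2629 higher and 2384 to 2841 lower. In TPM leaving out 1 library gave 7254 to 8297 calls, 6285 to 7234 higher and 956 to 1077 lower. Of the pathway genes 47 were higher and 6 lower. Higher were 18, 23 and 16, and lower 22, 20 and 22, after rescaling, under quantile normalization and with voom on rescaled reads, with 10 lower without mitochondrially encoded genes. With 1 library left out after rescaling 33 to 39 were called, 13 to 18 higher and 20 to 22 lower, against 49 to 53, 42 to 47 and 6 to 7 in TPM. The causes were not tested. No paired analysis was possible because the replicate numbers were given in accession order and pair no libraries.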
